A study of Mus musculus with 24 samples.

Results

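The comparison set naive mouse embryonic stem cells of the genotype MLL3KO_MLL4fl, which lack MLL3 by name and carry a floxed but still present MLL4, against naive wild-type (WT) cells, over all genes of one expression table. Its members were 6 samples of 24 in the series, 3 in each group per the labels. RNA was read as 3′ tags, 1 short read near the poly(A) end of a transcript, in 4 genotypes and 2 states, with replicates described as separate cultures. Wild-type cells were labelled R1, an established embryonic stem cell line, and no line was labelled for MLL3KO_MLL4fl. Naive cells carried no treatment label, and formative cells, used here for comparison only, were taken 63 h after withdrawal of LIF2i, a medium with leukaemia inhibitory factor and a pair of kinase inhibitors. The groups therefore differed by the MLL3 alteration, the floxed MLL4 allele and any difference between the lines, and these cannot be told apart.

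MLL3, encoded by Kmt2c, and MLL4, encoded by Kmt2d, are large methyltransferases that place single methyl groups on lysine 4 of histone H3, mostly at enhancers. Both work in a complex with WDR5, RBBP5, ASH2L and DPY30. In the naive state embryonic stem cells resemble the inner cell mass before implantation, and a small part of a culture can at times express genes of the 2-cell embryo.

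Library counts were recovered from the deposited group means, and the means of the naive wild-type column held 2 libraries, with 14237630 and 8839216 counts, where the labels list 3 samples. The 3 MLL3KO_MLL4fl libraries held 10734725, 10403184 and 6619593 counts. Libraries are named a, b and c by falling depth. A gene varied between libraries by a median SD of 0.28 log2 in wild-type and 0.38 log2 in MLL3KO_MLL4fl cells. MLL3KO_MLL4fl library b stood apart: its log2 values correlated across 3679 genes at 0.745 with library a and 0.798 with library c, which correlated at 0.881 with each other, and at 0.791 and 0.792 with the wild-type libraries. Where libraries a and c were close, 375 of 4626 genes were at least 1 log2 lower in library b and 14 were higher. Summed over 8 markers of naive stem cells (Esrrb, Klf2, Klf4, Zfp42, Tfcp2l1, Nanog, Pou5f1 and Sox2) the deposited means came to 2693 CPM (counts scaled to the library's total) in wild-type and 2721 CPM in MLL3KO_MLL4fl cells. The 5 fibroblast markers measured summed to 7.23 and 7.92 CPM in wild-type libraries and to 8.76 to 11.7 CPM in MLL3KO_MLL4fl libraries. Markers of primitive endoderm (3.44 and 5.32 against 2.5 to 4.38 CPM) and of trophoblast (4.64 and 6.11 against 4.61 to 6.15 CPM) overlapped between the groups.

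The targeted gene was 2.09-fold lower. Kmt2c (chromosome 5, 25271798 to 25498783 of GRCm38) was at 62.6 and 37.7 CPM in wild-type libraries and at 31.6, 13.3 and 29.6 CPM in MLL3KO_MLL4fl libraries, so the groups did not overlap. It fell by 1.06 log2 (SE 0.29, limma adjusted p = 0.0296), but the call was lost without wild-type library a (adjusted p = 0.401) or MLL3KO_MLL4fl library b (adjusted p = 0.101). With the spread estimated from the naive wild-type and MLL3KO_MLL4fl groups alone, the call was lost as well (limma adjusted p = 0.185). The tags come from the 3′ end of a transcript, and the site of the alteration is not stated by the labels, so the level is no measure of functional MLL3. In other naive lines the deposited mean of Kmt2c was 21.99 CPM in MLL3KO_MLL4KO and 67.4 CPM in MLL3CD_MLL4CD cells. Kmt2d was at 29.99 and 27.6 CPM in wild-type and at 32.98, 22.2 and 32.0 CPM in MLL3KO_MLL4fl libraries, with overlapping groups and a difference of -0.01 log2 (SE 0.19, adjusted p = 0.99). Of 5 tested members of the list of MLL and SET1 methyltransferases and partners, Kmt2c was the one past the threshold.

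Across 10335 tested genes 264 were higher in MLL3KO_MLL4fl cells (2.55%) and 403 were lower (3.9%), at a Benjamini-Hochberg adjusted p under 0.05 in limma. Together 667 genes, or 6.45%, were called, where an unadjusted p under 0.05 gave 1966. The median difference was 1.32 log2 among genes that rose and -1.57 log2 among genes that fell, beside 0.02 log2 over all genes. At least 2-fold differences were held by 196 of the higher and 328 of the lower calls, and at least 4-fold differences by 65 and 133. The libraries of the groups did not overlap for 665 of the called genes, where 13.7% of tested genes had all MLL3KO_MLL4fl libraries above wild type and 15% all below. The counts depended on the libraries: without wild-type library a 58 genes were higher and 173 lower, without wild-type library b 135 and 269, and without MLL3KO_MLL4fl library b 435 and 392. With the spread estimated from the 2 groups of the contrast alone, 45 genes were higher and 171 lower, and 32 of the 70 called genes named by the rule or in the text lost their call.

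**Figure D1:**
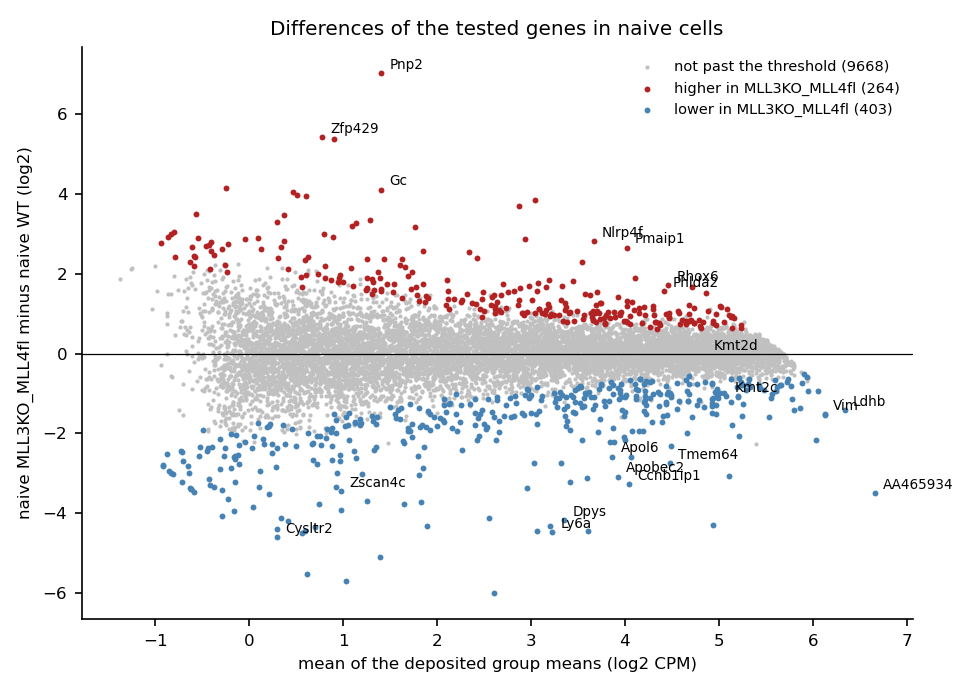
Difference between naive MLL3KO_MLL4fl and naive WT cells (log2, y axis) against the mean level (log2 CPM, x axis) of the 10335 tested genes, 1 point a gene, red where higher and blue where lower past the threshold. The cloud centres on 0, with 264 red and 403 blue points, and Pnp2 lies farthest above it.

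Among genes with a full symbol rather than a model name, the largest rises began with genes that were nearly silent in wild-type cells. Pnp2 (chromosome 14, 50955992 to 50964749), a purine nucleoside phosphorylase, had 1 and 0 counts in the wild-type libraries and 30.9, 32.9 and 24.6 CPM in the MLL3KO_MLL4fl libraries, a ratio of 696 between summed counts scaled to library totals (exact 95% interval 125 to 27520, counting error only). The annotated span of the paralogous gene Pnp (50931082 to 50965237) covers that of Pnp2 on the same strand, so how reads were shared between them is uncertain. Zfp429, a zinc finger gene, had 2 and 0 counts against 9.13, 12.5 and 10.9 CPM, a ratio of 125 (interval 34.2 to 1034). Both were on in every MLL3KO_MLL4fl library and close to off in wild type. Their adjusted p-values were 6.86e-10 and 2.64e-07. Gc, the vitamin D binding protein of serum, was at 0.421 and 0.452 CPM against 18.5, 4.81 and 13.4 CPM (4.10 log2, SE 0.83, adjusted p = 0.00224). ND3, a subunit gene of respiratory complex I on the mitochondrial genome that has a near-identical copy, had 3 counts in wild type against 16.02, 2.88 and 3.17 CPM, most of it in library a, and a ratio of 61.8 (interval 20.9 to 301.9).

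Among rises from a measurable wild-type level, Pmaip1, which encodes the cell death protein NOXA and is a p53 target, went from 5.41 and 7.24 CPM to 45.5, 32.3 and 44.9 CPM (2.65 log2, SE 0.24, adjusted p = 2.64e-07). Nlrp4f, an oocyte-type NLR gene, went from 3.09 and 6.79 CPM to 37.3, 29.0 and 34.4 CPM (2.81 log2, SE 0.33, adjusted p = 2.76e-06). The lowest MLL3KO_MLL4fl library lay over 4-fold above the highest wild-type library for each of these genes. Eif3j1, a translation initiation factor gene, rose by 2.86 log2, and Rgs9, a regulator of G protein signalling, by 2.56. Other rises began from wild-type levels near or not far above that of Gc. The cell cycle regulator gene Rgcc rose by 3.27 from 0.56 and 0.45 CPM. Uggt2, of glycoprotein folding in the endoplasmic reticulum, rose by 3.19 from 0.98 and 0.23 CPM. The antisense gene Tnfsf13os rose by 3.18 from 1.475 and 0.57 CPM. Crisp1, a secretory protein gene of the male tract, rose by 2.92 from 0.14 and 1.13 CPM. Calls among these rises were lost when 1 wild-type library was left out: without library a the adjusted p was 0.0773 for Gc, 0.264 for ND3, 0.101 for Rgcc and 0.206 for Crisp1, and without library b it was 0.0924 for Uggt2, 0.0669 for Rgcc and 0.129 for ND3. At a prior count of 0.5 the call of ND3 was lost as well (adjusted p = 0.171). Gc, ND3, Rgcc, Uggt2 and Crisp1 lost their calls with the groups of the contrast alone (limma adjusted p = 0.0794, 0.163, 0.0816, 0.0989 and 0.0943).

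The largest falls, again among genes with a full symbol, took genes of at least 5 CPM in wild type to a low level. AA465934, a gene on chromosome 11, was at 332.3 and 347.3 CPM in wild type and at 27.0, 32.0 and 31.0 CPM in MLL3KO_MLL4fl libraries, where it fell by 3.497 log2 (SE 0.16, adjusted p = 5.61e-10). Dpys, dihydropyrimidinase of pyrimidine breakdown, was at 29.8 and 62.5 CPM against 1.86, 1.83 and 3.17 CPM (-4.17 log2, SE 0.43). Ccnb1ip1, a meiotic crossover factor, was at 37.4 and 70.0 CPM against 4.47, 4.61 and 6.496 CPM (-3.27 log2, SE 0.30). In all 3 every MLL3KO_MLL4fl library was far below the lowest wild-type library. Parm1, a mucin-like membrane protein gene, fell from 26.5 and 21.8 CPM to 0.652, 2.40 and 1.06 CPM, and Adcy2, an adenylyl cyclase gene, from 22.3 and 27.4 CPM to 2.05, 4.33 and 1.21 CPM. Cysltr2, a leukotriene receptor gene, was at 5.197 and 6.34 CPM in wild type and had 2 counts in all MLL3KO_MLL4fl libraries together, 78.2-fold lower (interval 21.2 to 652). Lix1, which has a near-identical copy, fell by 4.34 log2, Dcstamp, of cell fusion in osteoclasts, by 3.77 and Aass, the first enzyme of lysine breakdown, by 3.34. None of the falls named in this paragraph lost its call in any alternative in which it was tested.

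**Figure D2:**
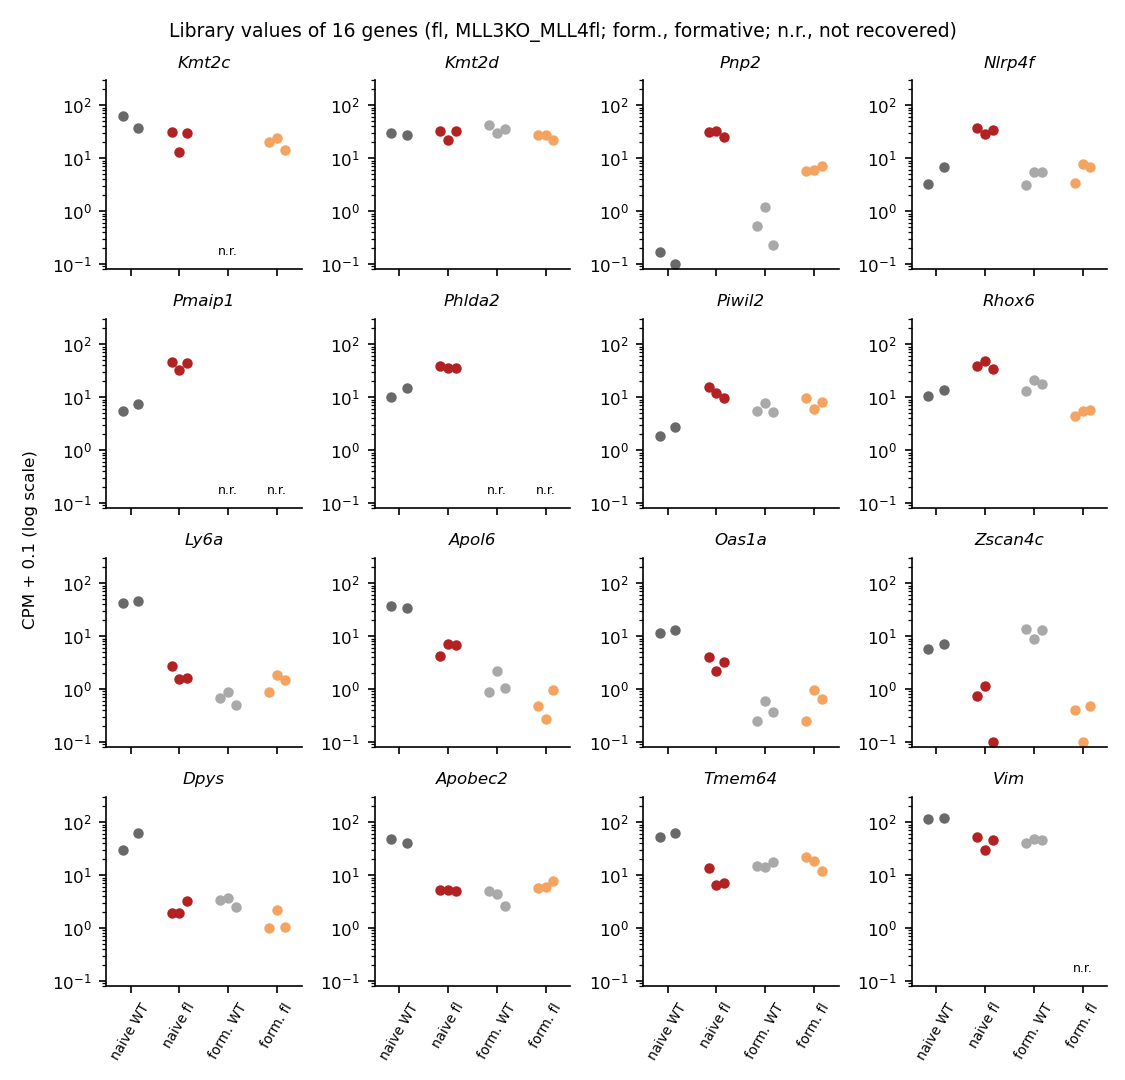
CPM + 0.1 (log scale) of 16 genes in every recovered library of naive and formative WT and MLL3KO_MLL4fl cells, 1 point a library, with groups at levels too high for recovery marked n.r. In naive cells the groups are apart for each gene except Kmt2d, and Ly6a, Apol6 and Oas1a are high in naive WT libraries alone.

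Genes of the 2-cell embryo were lower in MLL3KO_MLL4fl cells. Zscan4 genes keep telomeres long in the rare cells that express them, and Tcstv3 is switched on in the same cells. Of 11 listed genes measured, 8 were tested, 6 fell (75%, beside 3.9% of all tested genes) and 1, Dppa3, rose, with a median difference of -3.09 log2 beside 0.02 over all tested genes. Zscan4c (chromosome 7, 11005745 to 11010547) was at 5.55 and 7.01 CPM in wild type and at 0.652, 1.06 and 0 CPM in MLL3KO_MLL4fl libraries (-3.45 log2, SE 0.53, adjusted p = 0.000111). Zscan4d was at 1.26 and 3.51 CPM against 0, 0.288 and 0.151 CPM (-2.87 log2, adjusted p = 0.00132), a call lost where only these 2 groups gave the spread (adjusted p = 0.0832). Gm8300 was at 7.23 and 6.11 CPM against 0.186, 0.192 and 0 CPM (-4.48 log2, adjusted p = 1.01e-06). Every MLL3KO_MLL4fl library was below both wild-type libraries for each of these genes. Tcstv3 had 54 counts in wild type and 2 in MLL3KO_MLL4fl libraries, 32.5-fold lower (interval 8.57 to 275), and Tmem92 had 59 and 3, 23.7-fold lower (interval 7.71 to 118). Summed over the 5 markers Zscan4c, Zscan4d, Zfp352, Usp17la and Tcstv3, levels were 9.97 and 14.0 CPM in wild-type and 1.03, 1.63 and 0.453 CPM in MLL3KO_MLL4fl libraries. Fewer cells in this state and less RNA per cell cannot be told apart in bulk samples. Zscan4 genes and Tcstv3 have near-identical copies, so reads may be split between them. Dppa3, a maternal factor of oocytes and also of naive cells and germ cells, was at 2.95 and 3.62 CPM against 10.2, 6.15 and 8.31 CPM (1.25 log2, SE 0.32, adjusted p = 0.0167), a call lost without wild-type library a (adjusted p = 0.238), wild-type library b (0.0589) or MLL3KO_MLL4fl library a (0.0698).

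Of the interferon response genes 4 of 11 tested fell in MLL3KO_MLL4fl cells, Ly6a and Apol6 by the most. Interferon target genes are switched on by STAT and IRF factors that bind a tandem GAAA-type element near the start of the gene. Of 17 listed genes measured, 11 were tested, 4 fell (36.4%, beside 3.9% of all tested genes) and 1 rose (9.09%, beside 2.55%), with a median of -0.38 log2. Ly6a (chromosome 15, 74994877 to 74998031), which encodes the surface protein Sca-1, was at 41.8 and 45.7 CPM in wild type and at 2.61, 1.44 and 1.51 CPM in MLL3KO_MLL4fl libraries (-4.47 log2, SE 0.31, adjusted p = 5.61e-10). Apol6, an apolipoprotein L gene, was at 37.0 and 33.9 CPM against 4.10, 7.02 and 6.65 CPM (-2.58 log2, SE 0.26, adjusted p = 2.64e-07). Xaf1, a cofactor of cell death, was at 18.3 and 29.6 CPM against 11.2, 4.71 and 7.55 CPM (-1.64 log2, adjusted p = 0.000837). The gap was widest for Ly6a and narrowest for Xaf1, and no library overlapped. Oas1a, an oligoadenylate synthetase that senses double-stranded RNA, was at 11.5 and 13.1 CPM against 4.01, 2.12 and 3.17 CPM (-1.96 log2, SE 0.31, adjusted p = 0.000124), and Oas1f, of the same gene cluster but not in the list, was at 11.3 and 14.0 CPM against 0.652, 1.15 and 0.604 CPM (-3.72 log2, SE 0.39, adjusted p = 4.58e-07). Oas1a has a near-identical copy. Zbp1, a sensor of Z-form nucleic acid, went the other way, from 0.702 and 0.452 CPM to 3.91, 2.12 and 2.57 CPM (1.96 log2, adjusted p = 0.0493), and lost its call without any one of 4 of the 5 libraries (adjusted p up to 0.23). Zbp1 also lost its call with the groups of the contrast alone (limma adjusted p = 0.196). The deposited means of Ly6a, Apol6 and Oas1a in the other naive lines were low as well: 1.80 CPM for Ly6a, 0.44 CPM for Apol6 and 0.32 CPM for Oas1a in MLL3KO_MLL4KO cells, and 2.30, 1.24 and 0.82 CPM in MLL3CD_MLL4CD cells, which are of the R1 line like wild type.

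The stretch of 100 bases before the start of Oas1a is shown because it holds matches to the element through which interferon target genes are known to be switched on. It is from RefSeq on GRCm38.p6, chr5:120907526-120907625, minus strand, with the matches in capitals.
Oas1a: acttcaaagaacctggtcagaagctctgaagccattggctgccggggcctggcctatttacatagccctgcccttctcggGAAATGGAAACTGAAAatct
The motif searched was TTTCNNTTTC, on both strands, in the 250 bases before each start. It had 2 overlapping matches in Oas1a, beginning 20 and 14 bases before the start, and was held by 2.98% of all 32851 promoters of the table. The table had 14 genes of the interferon list, and 8 of them held it. Of the 4 listed genes that fell, Oas1a and Xaf1 were in the table, and Xaf1 had no match to these letters.

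Of 17 tested germline and meiosis genes 3 rose (17.6%, beside 2.55% of all tested genes) and 1 fell (5.88%, beside 3.9%), and the median was -0.34 log2. Piwil2, a partner of piRNAs in the silencing of transposons, was at 1.76 and 2.60 CPM against 15.7, 11.7 and 9.52 CPM (2.39 log2, SE 0.48, adjusted p = 0.00239). Ddx4, the germ cell helicase VASA, was at 4.71 and 4.07 CPM against 13.7, 10.3 and 10.6 CPM (1.345 log2, SE 0.27). Tex11, an X-linked meiosis gene, rose 2.53-fold, and the tubulin gene Tuba3a, which has a near-identical copy, fell by 0.98. Each rise lost its call without wild-type library a (adjusted p = 0.114 for Piwil2, 0.0647 for Ddx4 and 0.133 for Tex11), and Tuba3a without wild-type library b (0.127) or MLL3KO_MLL4fl library c (0.0655). Ddx4, Tex11 and Tuba3a also lost their calls with the groups of the contrast alone (limma adjusted p = 0.0738, 0.06 and 0.114). Rpl10l, a testis-type ribosomal protein gene on the same list, was too abundant for a test and had deposited means of 1703 CPM in wild-type and 419.9 CPM in MLL3KO_MLL4fl cells.

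Of 8 tested maternally expressed imprinted genes 3 rose (37.5%, beside 2.55% of all tested genes) and 1 fell (12.5%, beside 3.9%). Phlda2, a growth-restraining gene of the placenta, was at 10.1 and 14.7 CPM against 39.5, 35.2 and 35.1 CPM (1.57 log2, SE 0.20, adjusted p = 2.34e-05), and Slc22a18, its neighbour on chromosome 7, was at 0.211 and 0.226 CPM against 0.838, 1.54 and 2.57 CPM (2.04 log2, adjusted p = 0.0496). Phlda2 kept its call in every alternative in which it was tested. Its deposited mean in naive MLL3KO_MLL4KO cells was 10.1 CPM, beside 12.4 CPM in wild type. Slc22a18 lost its call at a prior count of 0.5 (limma adjusted p = 0.152), with no filter (0.0886) or with no weights (0.0684). The call of Slc22a18 was lost as well with the naive groups alone (0.101) or the groups of the contrast alone (0.292). H19, a long noncoding RNA, was at 8.64 and 13.7 CPM against 19.9, 28.5 and 17.2 CPM (0.96 log2, adjusted p = 0.0293), and Rian, a noncoding RNA of the Dlk1 region, was at 74.9 and 60.9 CPM against 45.3, 35.5 and 44.0 CPM (-0.71 log2, adjusted p = 0.0274). Of 14 paternally expressed genes Nnat was the one past the threshold (1.67 log2, adjusted p = 0.046), a share of 7.14% beside 6.45% of all tested genes. Its call was lost with size factors (adjusted p = 0.0527), a prior count of 0.5 (0.0602), no filter (0.0565), the naive groups alone (0.0899) or the groups of the contrast alone (0.249). H19 and Rian lost their calls with the groups of the contrast alone as well (limma adjusted p = 0.203 and 0.131). These calls were near the limit: without wild-type library a the adjusted p was 0.26 for Slc22a18, 0.389 for H19, 0.27 for Rian and 0.17 for Nnat. They were lost as well without wild-type library b for Slc22a18 (0.187) and Nnat (0.253), without MLL3KO_MLL4fl library b for H19 (0.0693) and Rian (0.0566), without library c for Rian (0.0578) and Nnat (0.0971) and without library a for Nnat (0.0664).

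Signalling pathways that guide early lineages differed at single genes. Of 15 tested Wnt pathway genes 2 rose (13.3%, beside 2.55% of all tested genes) and 1 fell (6.67%, beside 3.9%). Porcn, the enzyme that acylates Wnt ligands so that they can be secreted, was at 15.1 and 18.3 CPM against 31.8, 48.4 and 38.5 CPM (1.22 log2, SE 0.22, adjusted p = 0.000776). Among targets, Cdx1 was at 16.4 and 16.5 CPM against 41.6, 20.7 and 44.9 CPM (1.03 log2, adjusted p = 0.00981), while Sp5, a direct Wnt target, was at 13.6 and 15.1 CPM against 8.20, 5.77 and 4.68 CPM (-1.21 log2, SE 0.24, adjusted p = 0.00196). So an enzyme of ligand release and one target were higher and another target was lower. Deposited means in naive MLL3KO_MLL4KO cells were 3.59 CPM for Porcn, 7.73 CPM for Cdx1 and 16.1 CPM for Sp5. Of 13 tested Nodal and BMP genes none rose and 1, the ligand Bmp4, fell (7.69%, beside 3.9% of all tested genes). Bmp4 went from 8.15 and 6.34 CPM to 1.03, 2.69 and 3.48 CPM (-1.65 log2, SE 0.36, adjusted p = 0.00401). The call was lost without wild-type library a for Porcn (adjusted p = 0.0558), Cdx1 (0.143) and Bmp4 (0.0987), and for Cdx1 also without wild-type library b (0.0625) or MLL3KO_MLL4fl library c (0.0609). With the groups of the contrast alone the calls of Sp5, Cdx1 and Bmp4 were lost (limma adjusted p = 0.0898, 0.196 and 0.104). None of 8 tested FGF and ERK response genes and none of 8 tested LIF and STAT3 response genes passed in limma, with 1 in each list at an unadjusted p under 0.05.

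Most pluripotency genes were too abundant for library recovery and had deposited means only. Of 18 naive pluripotency genes 4 were tested and 1, Dppa3, rose (25%, beside 2.55% of all tested genes). Of the rest, Klf4, a reprogramming factor, had deposited means of 185.3 CPM in wild-type and 484.8 CPM in MLL3KO_MLL4fl cells (1.39 log2, no test), and Tcl1, a coactivator of AKT kinase, 178.8 and 62.4 CPM (-1.52 log2, no test). The naive pluripotency list's median of deposited differences was -0.08 log2, and its summed level was 4303 CPM in wild-type and 4298 CPM in MLL3KO_MLL4fl cells. Of 14 measured genes of shared pluripotency 2 were tested and none passed in limma, and the summed level was 4834 and 4148 CPM. Lin28a, an inhibitor of let-7 processing on that list, had 80.2 and 203.5 CPM (1.343 log2, no test). Of 10 tested formative genes 2 rose (20%, beside 2.55% of all tested genes). Pou3f1 (OCT6) went from 7.73 and 9.62 CPM to 16.5, 17.7 and 18.3 CPM (1.003 log2, SE 0.22, adjusted p = 0.00719), and the tight junction gene Cldn6 rose by 1.21 log2. Both were lost without wild-type library a (adjusted p = 0.175 and 0.494), and Cldn6 also without MLL3KO_MLL4fl library a (0.072) or c (0.103). With the groups of the contrast alone Dppa3, Pou3f1 and Cldn6 lost their calls (limma adjusted p = 0.155, 0.118 and 0.19), and Cldn6 also with no weights (0.0583). Etv4, an ETS factor downstream of FGF, had deposited means of 25.5 and 77.8 CPM (1.61 log2, no test).

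Lineage genes were called at single members, 33.3% of the tested neuroectoderm, 16.7% of the primitive endoderm and 12.5% of the trophoblast genes, beside 6.45% of all tested genes. In neuroectoderm Sox1, an early neural factor, rose by 1.03 log2 (adjusted p = 0.0139) and the neuronal tubulin Tubb3 fell by 0.91 (adjusted p = 0.00413), of 6 tested. Krt18, a keratin of simple epithelia, was the 1 gene of 8 tested trophoblast genes to pass (1.12 log2, adjusted p = 0.0123), and Lamb1, a laminin chain, the 1 of 6 in primitive endoderm (0.76 log2, adjusted p = 0.029). Gata6 and Gata4, which define primitive endoderm, were not tested, with deposited means of 0.33 and 1.02 CPM in wild-type and 0.73 and 0.50 CPM in MLL3KO_MLL4fl cells. Of 19 tested Hox genes none passed in limma, with 2 at an unadjusted p under 0.05, and of 8 tested Polycomb genes none, with 2 as well. The calls of Sox1, Tubb3, Krt18 and Lamb1 were lost with the groups of the contrast alone (limma adjusted p = 0.172, 0.0642, 0.131 and 0.203). Sox1, Tubb3, Krt18 and Lamb1 lost their calls without wild-type library a (adjusted p = 0.229, 0.058, 0.201 and 0.115), Sox1 and Lamb1 without MLL3KO_MLL4fl library a (0.057 and 0.0543), and Lamb1 without wild-type library b (0.201) or MLL3KO_MLL4fl library c (0.0613).

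In stress and metabolism the calls were also single genes, 22.2% of the tested p53 targets, 25% of the ATF4 and amino acid stress genes and 14.3% of the glycolysis genes, beside 6.45% of all tested genes. Of 9 tested p53 targets Pmaip1 rose and Eda2r, a death receptor gene, fell from 48.4 and 52.4 CPM to 16.5, 11.5 and 10.3 CPM (-1.99 log2, SE 0.21, adjusted p = 2.81e-06). Of 8 tested ATF4 and amino acid stress genes 2 rose, Chac1, which degrades glutathione, by 1.01 log2 (adjusted p = 0.00709) and the transcription factor Cebpb by 1.84 (adjusted p = 0.0318). Ldhb, a lactate dehydrogenase subunit, was the 1 of 7 tested glycolysis genes past the threshold, at 116.9 and 148.3 CPM against 48.2, 59.0 and 42.9 CPM (-1.41 log2, SE 0.19, adjusted p = 0.000132). Chac1 and Cebpb lost their calls without wild-type library a (adjusted p = 0.218 and 0.31), and Cebpb without wild-type library b (0.0849) or MLL3KO_MLL4fl library c (0.0613). Chac1 and Cebpb also lost their calls with the groups of the contrast alone (limma adjusted p = 0.13 and 0.168). Of 11 cholesterol synthesis, 8 cell cycle and 3 respiratory chain genes tested none passed in limma, with 2, 2 and 0 at an unadjusted p under 0.05.

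Cytoskeletal, adhesion and surface genes completed the listed calls. Called were 12.5% of the tested fibroblast and mesenchymal genes, 10% of axon guidance, 14.3% of MHC class I and 18.2% of junction genes. The share was 50% for the Y chromosome list, with 2 tested, and 6.45% over all tested genes. Vim, the intermediate filament vimentin, was at 115.2 and 120.7 CPM in wild type and at 51.5, 29.2 and 46.4 CPM in MLL3KO_MLL4fl libraries (-1.51 log2, SE 0.20, adjusted p = 4.95e-05). It was the 1 of 8 tested fibroblast and mesenchymal genes to pass, while the summed fibroblast markers given above (5 measured of 8, Acta2 most of the sum, Col1a2 at 0 in MLL3KO_MLL4fl libraries a and c, Dcn at 0 in MLL3KO_MLL4fl library c) were higher in MLL3KO_MLL4fl libraries; their part in the result was not tested. Of 20 tested axon guidance genes the semaphorin gene Sema5a rose, from 4.36 and 4.41 CPM to 18.6, 15.8 and 12.1 CPM (1.75 log2, SE 0.33, adjusted p = 0.00114), and the semaphorin receptor gene Nrp2 fell, from 13.3 and 14.1 CPM to 4.38, 5.19 and 5.29 CPM (-1.44 log2, SE 0.25, adjusted p = 0.000482). Of 7 tested genes of MHC class I and antigen presentation H2-K1 rose by 1.12 log2 (adjusted p = 0.00274), and of 11 tested junction genes the connexin gene Gjb5 fell by 0.98 (adjusted p = 0.00559) and Cldn6 rose. The median of the 7 tested MHC class I genes was 1.12 log2. By deposited means, 5 of the 13 measured were at least 2-fold higher and 0 lower, beside 4.83% and 6% of all genes. Their median deposited difference was 0.37 log2. On the Y chromosome Eif2s3y, a translation factor gene, fell by 1.003 log2 (adjusted p = 0.0122), 1 of 2 tested. H2-K1, Gjb5 and Eif2s3y lost their calls with the groups of the contrast alone (limma adjusted p = 0.0632, 0.0738 and 0.0898). Without wild-type library a the adjusted p was 0.061 for Sema5a, 0.129 for H2-K1 and 0.101 for Eif2s3y, and without library b it was 0.096 for Gjb5 and 0.0675 for Eif2s3y.

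**Figure D3:**
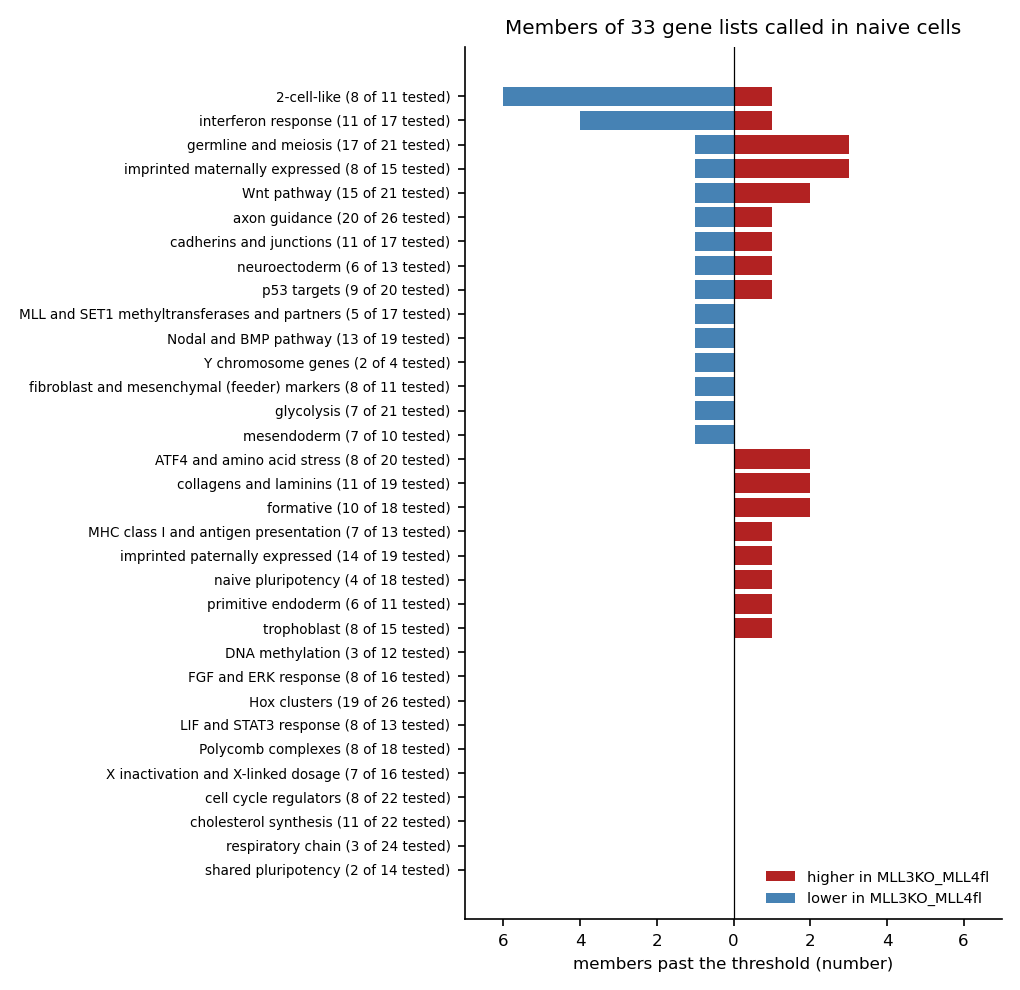
Number of members past the threshold in naive cells (x axis) for each of 33 gene lists (y axis), red to the right where higher in MLL3KO_MLL4fl and blue to the left where lower, with the members tested of those measured in parentheses. The 2-cell-like list has 6 blue members of 8 tested and the interferon list 4 of 11, and a gene may stand in more than one list.

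The same line was compared with wild type in formative cells, which share no library with the naive groups. There 486 of 10268 tested genes were higher (4.73%) and 622 lower (6.06%), and without formative wild-type library a 275 and 407. Of the 264 genes that rose in naive cells 193 were tested in formative cells, and 71 of them rose there too and 5 fell. Of the 403 that fell 301 were tested, and 104 fell there too and 4 rose. As shares, 36.8% of the naive rises and 34.6% of the naive falls were called in the same direction, where the formative calls made up 4.94% and 5.68% of the genes tested in both states; of the formative calls tested in naive cells, 17.3% of the higher and 22% of the lower were naive calls. The median formative difference of those genes was 0.42 log2 for the naive rises and -0.51 log2 for the naive falls. Zscan4c fell by 4.95 log2 in formative cells, Gm8300 by 3.97, Tcstv3 by 4.57 and Cysltr2 by 3.28, and Zfp429 rose by 3.41 and Gc by 4.46, all past the threshold.

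The difference between the states was tested by itself, and 149 of 10815 genes passed (1.38%), with 72 more positive (0.666%) and 77 more negative (0.712%) in naive cells. With the groups of the contrast alone these counts were 31 and 37, at a prior count of 0.5 they were 41 and 42, at a prior count of 5 they were 128 and 115, and without naive wild-type library b they were 27 and 55. Among tested naive calls it passed for 17 of 193 rises and 44 of 301 falls. Rhox6, an X-linked homeobox gene of the placenta and germline, reversed: it was at 10.6 and 13.5 CPM against 38.0, 48.2 and 34.4 CPM in naive cells (1.72 log2, adjusted p = 5.85e-05) and fell by 1.71 log2 in formative cells (adjusted p = 9.83e-05), a difference of 3.43 log2 (SE 0.36, adjusted p = 1.61e-06). Ly6a differed by -5.38 log2 (adjusted p = 1.61e-06), and its formative means were 0.78 and 1.46 CPM, near the floor in both lines. Apobec2, a cytidine deaminase family gene of muscle, fell in naive cells from 47.5 and 40.7 CPM to 5.03, 5.10 and 4.99 CPM (-3.08 log2, SE 0.25, adjusted p = 2.66e-08) and was 0.73 log2 higher, not past the threshold, in formative cells. Tmem64, a membrane protein gene, fell in naive cells from 53.5 and 61.2 CPM to 13.6, 6.34 and 6.95 CPM (-2.73 log2, SE 0.26) and was 0.14 log2 apart in formative cells. The formative wild-type mean was 3.93 CPM for Apobec2 and 15.5 CPM for Tmem64, beside 5.24 and 8.65 CPM in naive MLL3KO_MLL4fl cells.

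**Figure D4:**
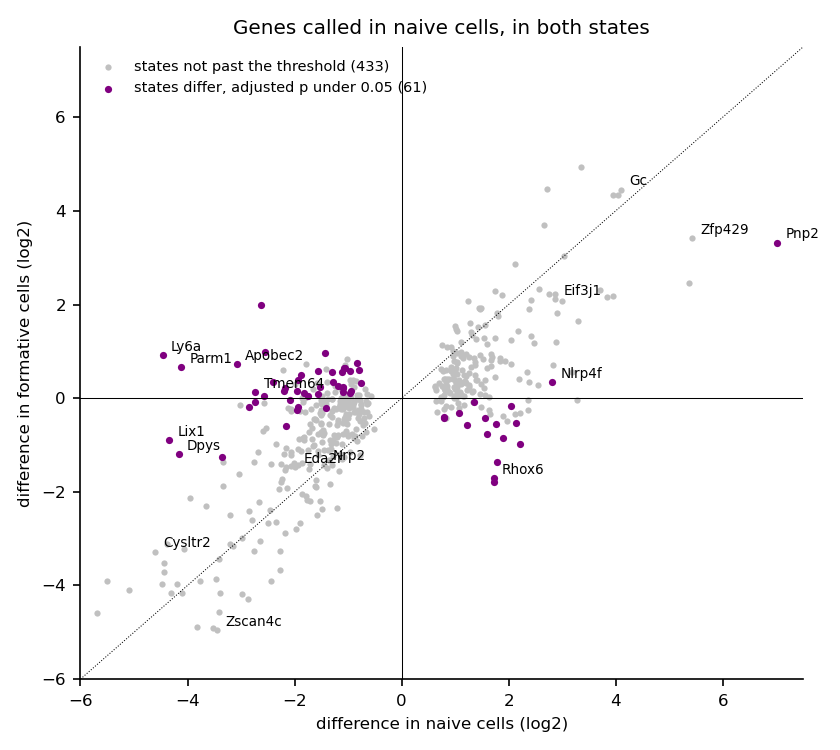
Difference between MLL3KO_MLL4fl and WT in naive cells (log2, x axis) against that in formative cells (log2, y axis), 1 point for each of the naive calls tested in both states, purple where the states differ past the threshold. Gc lies near the dotted line of equality, Zscan4c and Cysltr2 are far below 0 on both axes, Ly6a, Parm1, Apobec2 and Tmem64 are far below 0 on the x axis and above 0 on the y axis, and Rhox6 is above 0 on the x axis and below 0 on the y axis.

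Genes whose library values were not recovered, or that were too low for the test, numbered 6282, and the authors' deposited means were compared without a test. Of these, 231 stood 2-fold or more above wild type (3.68%) and 327 stood 2-fold or more below it (5.21%). Over all 16617 genes these numbers were 803 (4.83%) and 997 (6%). Most of the untested genes this far apart were at a low level. Among the 3781 untested genes with a mean of at least 5 CPM in either group, 56 stood 2-fold or more above and 23 below. Over all 9954 genes at that level 531 were at least 2-fold apart. The highest were Rpl34, a ribosomal protein gene, at 59.6 CPM in wild-type and 1641 CPM in MLL3KO_MLL4fl cells (4.78 log2), Ubd, a ubiquitin-like modifier gene, at 2.79 and 72.8 CPM (4.71 log2), Acp1, a phosphatase gene, at 5.97 and 87.4 CPM (3.87 log2), Obox6, an oocyte-type homeobox gene, at 3.73 and 54.4 CPM (3.87 log2), and Rpl29, another ribosomal protein gene, at 3.49 and 49.4 CPM (3.82 log2). The lowest were Rps3a3 (-4.72 log2), Rpl10l (-2.02), Fam25c (-1.83), the small nucleolar RNA host gene Snhg6 (-1.60) and Ifitm1, an interferon-induced membrane protein gene (-1.57). Ubd and Obox6 had formative means of 3.44 and 6.64 CPM and of 0.64 and 0.77 CPM in wild-type and MLL3KO_MLL4fl cells, while Rpl34, Rpl29 and Acp1 were apart in formative cells as well (70.2 and 2737 CPM, 5.70 and 55.4 CPM, and 8.62 and 97.6 CPM). Naive MLL3KO_MLL4KO cells had Ubd at 2.76 CPM, Obox6 at 10.8 CPM, Rpl29 at 49.8 CPM and Acp1 at 91.6 CPM.

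Part of these abundant genes have near-identical copies elsewhere in the genome, and the reads were 50 bases long. Among genes with a mean of at least 5 CPM, 4.76% had a copy of at least 96% identity over at least 50 bases near the 3′ end, against 26.9% of those at least 4-fold apart. Among all tested genes the share was 7.94%, and among the 667 called genes 10.6%. Rps3a1, which encodes a protein of the small ribosomal subunit, and its processed pseudogene Rps3a3 show how close such copies are. The coding window of 60 bases below, from GENCODE vM21 on GRCm38, is at chr3:86137992-86138051 (minus strand) in Rps3a1 and chr13:108671335-108671394 (plus strand) in Rps3a3, with the bases that differ in capitals.
Rps3a1: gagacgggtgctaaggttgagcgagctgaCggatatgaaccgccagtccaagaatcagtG
Rps3a3: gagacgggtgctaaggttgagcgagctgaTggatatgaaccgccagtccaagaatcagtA
The changes are C30T and G60A, with Rps3a1 first and positions counted from the 5′ end of the window. The pseudogene was at 2797 CPM in wild-type and 106.2 CPM in MLL3KO_MLL4fl cells, and Rps3a1 at 7.30 and 71.3 CPM. Summed over the gene and its 7 measured copies the level was 2816 CPM in wild-type and 191.2 CPM in MLL3KO_MLL4fl cells, so the sum differed as well. In naive MLL3KO_MLL4KO cells Rps3a3 was at 71.3 CPM and Rpl34 at 1694 CPM, and in naive MLL3CD_MLL4CD cells at 1654 and 71.5 CPM. Thus Rps3a3 and Rpl34 were at like levels in the R1 lines, and at other levels in both MLL3KO lines. Sequence differences between the lines were not tested.

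**Figure D5:**
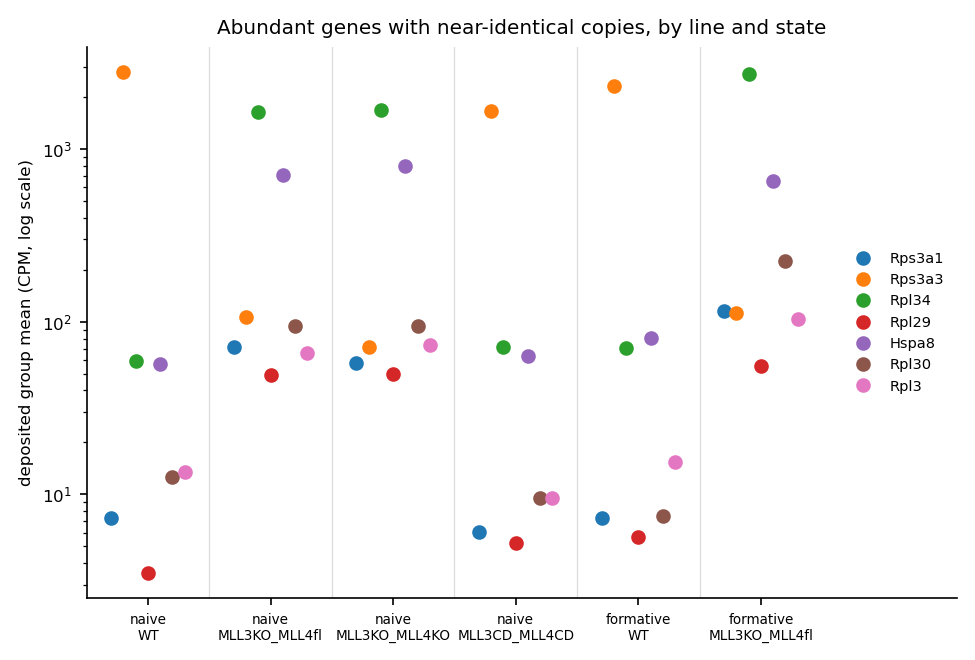
Deposited group means (CPM, log scale, y axis) of 7 genes with near-identical copies in 6 groups of line and state (x axis), 1 point a gene and group with no error bar because these are the authors' means. Rpl34 is at 59.6 to 71.5 CPM in WT and MLL3CD_MLL4CD cells and at 1641 to 2737 CPM in MLL3KO_MLL4fl and MLL3KO_MLL4KO cells, and Rps3a3 shows the opposite order.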

How the data were processed

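Trizol-extracted total RNA (200 ng) was made into QuantSeq 3′ FWD libraries and sequenced as single reads of 50 bases, per the labels' protocols. Per the submitters' processing notes, the tools were FastQC 0.11.8, MultiQC, cutadapt 2.5, STAR on mm10, featureCounts of Subread 1.6.4 and DESeq2 1.34.0. Whether counting used strand was not given in the sources used, and reads of overlapping and antisense genes cannot be told apart.

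The authors deposited log2 CPM with a prior count of 2 as 1 mean per group, for 16617 genes. The naive columns named for wild type and the conditional line were used, the latter read as MLL3KO_MLL4fl. Group means in CPM are these means taken back from the log2 scale, prior count included. Whole library counts that produce each mean were searched for, and 12836 genes were solved in both naive groups. Where more than 1 set of counts fitted, the search was narrowed, at most to 1 log2 either side of the mean. A single set left was then taken, which favours libraries that lie close together. Its effect on the spread was not tested. On simulated data 6 of 91805 recovered values were wrong. More abundant genes have deposited means only. The naive wild-type column held 2 libraries, so each difference rests on 2 against 3. The p-values cover the spread between cultures, estimated over all groups of the fit in which a gene was recovered. It is not the spread of the 2 naive groups alone.

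The test was limma 3.58.1 (R 4.3.3) over 7 groups and 20 libraries, with precision weights and trend-moderated variances, on genes that reached, in CPM, 10 counts of a median-sized library in at least 2 libraries of the contrast. The formative MLL3KO_MLL4KO column was not used here. Fold changes on the log2 scale with a prior count understate changes of low genes. On simulated data with the library sizes of the naive comparison (9925 genes tested), 83 genes were called, 3 of them unchanged. Of genes changed by 1.5-fold, 2-fold and 4-fold, 14.3%, 46.4% and 84.6% were called. The simulation drew the same spread for every group, held no library that stood apart and changed only genes of low to middle level. These shares therefore need not hold for the real libraries. Near-identical copies were found with BLAST+ 2.17.0 in the last 300 bases of each transcript. Symbols and positions are from GENCODE vM21, which matched 16606 genes.

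Named genes were Kmt2c and Kmt2d, the 12 largest rises and falls with libraries apart, at least 5 CPM and a symbol that is not a model or pseudogene name (such as Gm numbers, Rik or -ps; the same limit held for the untested genes and the differences between states), up to 4 called and 2 untested members of each of 33 lists, the 5 untested genes most above and most below, the 5 strongest differences between states and the genes nearest the threshold. A gene that this rule names is not reported here. Xaf1, Zscan4d, Oas1g and Pnp stand outside that rule and were named after their values had been seen. The members, lists and tests were chosen with earlier results of these data known.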

Additional observations from a re-analysis of the deposited data

Results flagged for a closer look

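For 15 of the named genes the difference between MLL3KO_MLL4fl and wild type itself differed between naive and formative cells, by limma's test of that difference. It was more negative in naive cells for Ly6a (-5.38 log2), Parm1 (-4.78), Dcstamp (-4.21), Apobec2 (-3.81), Oas1f (-3.64), Lix1 (-3.45), Dpys (-2.97), Tmem64 (-2.87) and Adcy2 (-2.10). It was more positive in naive cells for Pnp2 (3.70 log2), Rhox6 (3.43), Nlrp4f (2.46), Sema5a (2.31), Porcn (1.79) and Ddx4 (1.43). Formative wild-type means were 0.78 CPM for Ly6a, 0.41 CPM for Oas1f and 0.51 CPM for Dcstamp, low beside their naive levels. They were also below the naive wild-type means for Dpys (3.27 against 43.3 CPM), Apobec2 (3.93 against 44.2) and Parm1 (4.93 against 24.25). The same held for Adcy2 (5.34 against 24.9 CPM), Tmem64 (15.5 against 57.4) and Lix1 (3.67 against 7.19). Pnp2 also rose in formative cells (3.32 log2, adjusted p = 4.33e-06) and Adcy2 also fell (-1.26 log2, adjusted p = 0.024), each less than in naive cells.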

How the results depend on the processing

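No paired analysis was possible because the deposited columns carry no replicate numbers. Scaling by size factors, no filter, a stricter filter, no weights and the 4 naive groups alone each left the naive counts within 1.5 times of 264 higher and 403 lower. With the spread estimated from the 2 groups of the contrast alone, 45 genes were higher and 171 lower, and for the difference between states 31 and 37; fewer libraries enter these fits. Leaving out 1 library gave 58 to 435 higher and 173 to 392 lower genes in naive cells, 275 to 420 and 407 to 539 in formative cells, and 27 to 90 and 52 to 91 for the difference between states. A lone wild-type library was assumed to vary like the other groups. A prior count of 0.5 gave 41 and 42 genes for the difference between states, and a prior count of 5 gave 128 on the higher side; the cause was not tested. Of 70 named genes past the threshold 35 kept their call in every alternative in which they were tested, and without wild-type library a 30 lost it. Kmt2d, not past the threshold, changed sign without wild-type library a (0.05 log2) or MLL3KO_MLL4fl library b (0.17 log2), and ran from -0.11 to 0.17 log2 when 1 library was left out. Genes just inside the threshold were B930095G15Rik and Cby1 (adjusted p = 0.0496) and just outside Actn3 and Emid1 (0.0503). Among genes without a near-identical copy 250 were higher and 346 lower. Abundant genes have no library values, so depth there sets no limit that could be given.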

Other observations

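Among genes with a deposited mean of at least 5 CPM, the share of tested genes past the threshold ran over the autosomes from 3.79% on chromosome 16 (1 higher and 7 lower of 211) to 15.6% on chromosome 13 (18 higher and 21 lower of 250), with 13.3% on chromosome 14. It was 11.6% on the X chromosome, and 1 of 2 tested genes passed on the Y chromosome. Of the named calls at that level, Zfp429, Nlrp4f, Adcy2 and Ddx4 lie on chromosome 13. Pnp2, Cysltr2, Rgcc, Uggt2, Ccnb1ip1, Piwil2 and Bmp4 lie on chromosome 14. Median differences of the autosomes ran from -0.10 log2 on chromosome 8 to 0.10 on chromosome 12, and the median was 0.09 log2 on the X chromosome and 0.32 log2 over 4 genes of the Y chromosome, with the formative median of chromosome 8 at -0.07. Of 18 genes of the mitochondrial genome at that level the median was 0.44 log2, beside 0.23 in formative cells, and 1 of 8 tested was past the threshold. The shares of the chromosomes depended on the level. Without a limit they were 12.6% on chromosome 13, 9.71% on 14 and 4.11% on 16, beside 6.45% of all tested genes. At 20 CPM or more the autosomes ran from 4.38% on chromosome 8 to 16.7% on chromosome 3, with 10.2% on chromosome 14.

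Oas1g, a further member of the Oas1 cluster on chromosome 5, was looked up after Oas1a and Oas1f had been seen. It was at 4.43 and 4.41 CPM in wild-type and at 0.280, 1.06 and 0.453 CPM in MLL3KO_MLL4fl libraries (-2.67 log2, adjusted p = 0.00282). Pnp, whose annotated span covers that of Pnp2, was at 9.20 and 12.2 CPM against 46.7, 8.17 and 25.2 CPM, with overlapping libraries (0.99 log2, adjusted p = 0.292), and passed without MLL3KO_MLL4fl library b (1.68 log2, adjusted p = 0.00622).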
